A study of Mus musculus with 6 samples.

Results

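Transcripts of 42 cell cycle and DNA replication genes were followed in the livers of mice lacking both Hippo kinases Mst1 and Mst2 and in livers lacking Mst1 alone. The genes were 41 named symbols plus Cdk1, all of which were found among the 22068 symbols of the 6 libraries, Cdk1 under that name. They were arranged by role and phase into 6 groups: D cyclins and their kinases, inhibitors of cyclin-dependent kinases (CDKs), genes of the G1/S transition, origin licensing, S-phase synthesis, and G2/M. Livers were taken at 6 weeks of age from C57BL/6 animals and their poly-A RNA was sequenced, with 3 libraries from Mst1/2 liver-dKO mice (genotype Mst1-/-; Mst2fl/fl; alb-Cre+/+, here dKO) and 3 from control mice (Mst1-/-; Mst2fl/fl; alb-Cre-/-). Both groups were therefore null for Mst1 and carried loxP-flanked Mst2. What set them apart was the albumin-Cre transgene, whose promoter is active in hepatocytes. The controls were not wild type, and the liver tissue was sequenced whole, without sorting of cells.

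A cell entering the cycle first makes D-type cyclins, which bind Cdk4 or Cdk6 and phosphorylate the retinoblastoma protein, releasing E2F transcription factors. E2F factors switch on cyclin E, the MCM helicase that licenses replication origins, and the enzymes that make deoxynucleotides and copy DNA. Later, FOXM1 and the MYBL2-containing MuvB complex switch on cyclin B, Cdk1 and the genes of mitosis. In quiescent cells the DREAM complex holds the late genes down through a promoter element called CHR, and early genes through E2F elements. Most hepatocytes of the adult liver are quiescent and can re-enter the cycle, for example after partial hepatectomy, and the Hippo pathway restrains liver growth by keeping the coactivators YAP and TAZ out of the nucleus.

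The RPKM of a library summed to between 324034.3 and 352677.7 in dKO and between 364570.7 and 368245.5 in control libraries. Spacing of low values gave estimated depths of 21100000 to 24350000 reads in dKO and 17300000 to 25150000 reads in control libraries, control replicate 2 being the deepest, and how far depth bore on its high values was not tested. Along the first principal component, which held 67.3% of the variance, dKO replicate 3 lay at 49.0, against 19.2 and 20.3 for the other dKO libraries and -35.7 to -25.4 for the controls. Hepatocyte markers were abundant in every library, with Alb at 34053.9 to 37822.3 RPKM in dKO and 36156.8 to 46960.8 RPKM in control. Stk3, which encodes Mst2, had a log2 change of -0.15 ± 0.13 (SE; limma adjusted p = 0.424), which was -0.44 and called lower with quantile normalization alone (limma adjusted p 0.0474 to 0.748 over 15 alternatives). Stk4, which encodes Mst1, had a log2 change of 0.13 ± 0.13 (SE; limma adjusted p = 0.486). A value per gene cannot resolve a deleted exon, so these values did not check the genotypes. Replicates carry numbers only, and whether each was its own animal is not said, so the p-values reflect how far these libraries vary, which may be technical.

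The promoters of these genes were read for the letters of the elements named above. A RefSeq table (build GRCm38.p6, not the build of the files) held a promoter for 32 of the 42 genes, taken as 250 bases before to 50 bases after the first listed transcription start. Each window was searched on both strands for CHR letters (TTTGAA or TTCGAA), for the CCAAT box, which binds NF-Y, for E2F letters (TTTCGCGC, TTTGGCGC, TTTCCCGC or TTTGCCGC) and for TEAD letters (CATTCC), TEAD being the factor through which YAP and TAZ reach DNA. CHR letters stood in 10 of 12 G2/M promoters and in 2 of 7 licensing promoters, against 19.4% of 27025 promoters of the same length. CCAAT stood in 11 of 12 G2/M, 5 of 7 licensing and 3 of 5 S-phase promoters, against 37.9% of all promoters. It also stood in 1 of 2 promoters of CDK inhibitors, 1 of 3 of the G1/S transition and 0 of 3 of D cyclins and their kinases. E2F letters stood in 6 of 7 licensing promoters and 1 of 12 G2/M promoters, against 2.32% of all. They stood in 1 of 3 promoters of the G1/S transition and in 0 of 5 of S-phase synthesis, also named above as E2F targets. TEAD letters stood in 1 of the 32 promoters, that of Mcm3, against 14.6% of all. Below are the promoters of Cdk1, Ccnb2 and Mki67, the G2/M genes called higher that held the most matches, followed by those of Mcm6, which held the most E2F matches of the licensing genes, and Mcm7, which held the most matches of the 3 marked motifs together. CHR, CCAAT and E2F letters, read on either strand, are in capitals, and neighbouring or overlapping matches run together.
Cdk1: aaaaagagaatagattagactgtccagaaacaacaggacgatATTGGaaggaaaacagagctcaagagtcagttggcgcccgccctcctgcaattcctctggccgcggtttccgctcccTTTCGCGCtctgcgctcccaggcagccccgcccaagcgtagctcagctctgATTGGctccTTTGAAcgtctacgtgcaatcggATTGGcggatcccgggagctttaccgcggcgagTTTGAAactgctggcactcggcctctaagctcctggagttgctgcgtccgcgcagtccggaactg
Ccnb2: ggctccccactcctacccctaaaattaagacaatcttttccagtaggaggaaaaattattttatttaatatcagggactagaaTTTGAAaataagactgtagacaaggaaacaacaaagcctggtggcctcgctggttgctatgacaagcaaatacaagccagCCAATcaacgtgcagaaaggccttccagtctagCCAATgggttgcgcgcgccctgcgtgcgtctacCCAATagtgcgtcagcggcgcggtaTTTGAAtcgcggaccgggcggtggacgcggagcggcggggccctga
Mki67: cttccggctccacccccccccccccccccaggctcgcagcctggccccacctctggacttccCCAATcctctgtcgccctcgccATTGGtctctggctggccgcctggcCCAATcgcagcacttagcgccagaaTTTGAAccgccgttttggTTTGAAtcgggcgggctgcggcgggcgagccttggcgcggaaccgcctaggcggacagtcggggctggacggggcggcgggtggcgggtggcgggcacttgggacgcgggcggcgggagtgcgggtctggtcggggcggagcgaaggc
Mcm6: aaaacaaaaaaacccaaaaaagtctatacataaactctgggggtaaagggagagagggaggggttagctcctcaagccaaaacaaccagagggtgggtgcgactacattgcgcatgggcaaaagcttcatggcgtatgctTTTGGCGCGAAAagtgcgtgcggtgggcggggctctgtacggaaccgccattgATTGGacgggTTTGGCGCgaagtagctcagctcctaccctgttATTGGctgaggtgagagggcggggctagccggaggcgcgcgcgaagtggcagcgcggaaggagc
Mcm7: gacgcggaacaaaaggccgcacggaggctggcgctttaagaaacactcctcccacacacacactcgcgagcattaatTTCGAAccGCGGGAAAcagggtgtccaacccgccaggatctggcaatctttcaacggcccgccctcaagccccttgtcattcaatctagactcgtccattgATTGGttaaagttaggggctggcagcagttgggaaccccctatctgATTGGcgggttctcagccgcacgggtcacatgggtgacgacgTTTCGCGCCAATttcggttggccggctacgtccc
The windows lie on chr10:69352863-69353162, chr9:70421505-70421804, chr7:135716330-135716629, chr1:128359656-128359955 and chr5:138171834-138172133, all on the minus strand and printed 5′ to 3′ along the transcript. In the Cdk1 promoter CHR letters begin at bases -71 and -15 from the start, CCAAT letters at -208, -80 and -48 and E2F letters at -131. Ccnb2 has CHR letters at -167 and 5 with CCAAT at -87, -54 and -21. Mki67 has CHR letters at -116 and -98 with CCAAT at -188, -166 and -141. In the Mcm6 promoter E2F letters begin at -110, -106 and -47 and CCAAT letters at -57 and -14, with no CHR letters. Mcm7 has E2F letters at -165 and 17, CCAAT at -72, -26 and 24 and CHR letters at -173. These are matches of letters, and binding was not measured.

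Every call among the cell cycle genes was in one direction: 13 of 42 were called higher in dKO liver and 0 lower. The called genes were Ccnd1, Cdk4, Cdkn1b, Cdkn2c, E2f1, Pcna, Tk1, Ccna2, Ccnb2, Cdk1, Foxm1, Mki67 and Cdc20. Calls rest on limma at a Benjamini-Hochberg adjusted p under 0.05 over all 11062 symbols with a mean of at least 1 RPKM, of which 17.8% were called higher and 2.17% lower. Of the 42 genes 39 passed that filter, and 33.3% of those 39 were called higher. Ccne1, Ccne2 and Cdc6 did not pass, and Bub1 passed through its dKO libraries, its control mean being under 1 RPKM. A log2 change is the mean log2(RPKM + 1) in dKO livers less that in controls, given with its SE (n = 3 libraries each), and it understates the change of low genes. All 39 tested genes (35 with median-ratio scaling) had a log2 change above 0, from 0.05 for Cdk2 to 1.23 for E2f1, with a median of 0.51, while the median over all tested symbols was 0.23. Of all 11062 tested symbols 8420 lay above 0 (5466 with median-ratio scaling). Between all dKO and all control libraries there was no overlap for 24 of the 42 genes (57.1%), all higher in dKO, against 31.8% of the 16907 detected symbols higher and 5.05% lower. Among the 11062 tested symbols, which leave out those near the floor, 4241 were higher and 745 lower without overlap. In whole tissue a different number of cells of a type and a different amount of RNA per cell cannot be told apart.

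Because the whole distribution was shifted up, the calls were also read after median-ratio scaling, which moved the median over all tested symbols to -0.01 and that of the cell cycle genes to 0.29. Then 5 of the 42 genes were called higher and 0 lower, against 7.89% of tested symbols higher and 5.55% lower. The 5 were Cdk4, Cdkn2c, E2f1, Ccna2 and Ccnb2, and these kept their call in each of the 15 alternatives that retained the 0.05 threshold. Leaving out control replicate 2 raised the count to 20 genes, and leaving out control replicate 1 or 3 lowered it to 8. Without dKO replicate 3, which stood apart, 10 genes were called higher. The counts over all tested symbols moved as well. They were 1983, 755 and 947 higher without control replicate 2, 1 and 3 and 1049 without dKO replicate 3, against 1965 with all libraries.

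**Figure D1:**
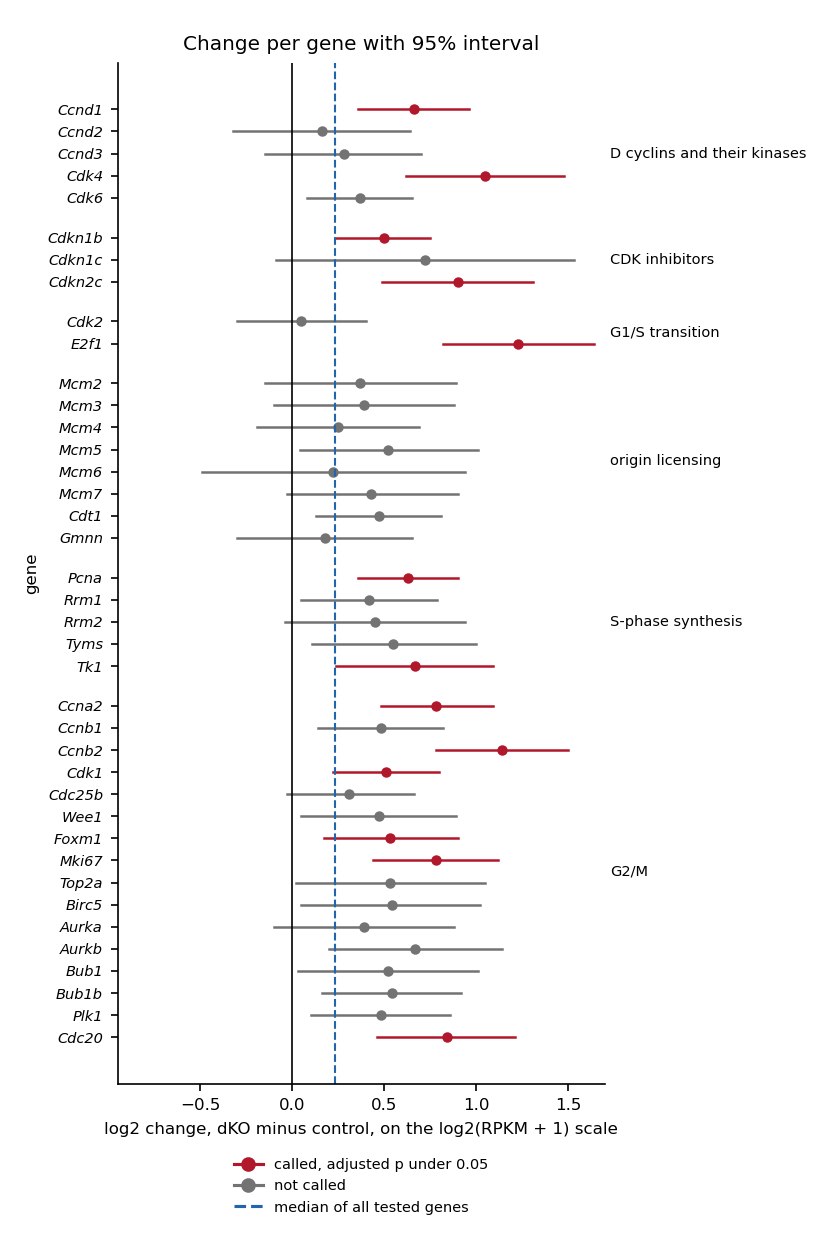
Log2 change of each tested gene (mean log2(RPKM + 1) in dKO less that in control), with its 95% interval from limma (n = 3 libraries each). Red marks the 13 called genes, grey the others, and the dashed line the median of 0.23 over all tested symbols. All 39 points lie above 0 (35 would with median-ratio scaling), and so do 8420 of all 11062 tested symbols. The 8 tested licensing genes hold no red point, while 17.8% of all tested symbols were called higher.

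Among D cyclins and their kinases, 2 of 5 genes were called higher, Ccnd1 and Cdk4, and 0 lower. Over all tested symbols 17.8% were called higher and 2.17% lower. With median-ratio scaling 1 of the 5, Cdk4, was called higher, against 7.89% of all tested symbols. Ccnd1, the cyclin that couples growth signals to G1 and the most abundant gene of the 42, had 52.1, 50.2 and 52.7 RPKM in dKO livers, against 29.2, 36.2 and 32.1 RPKM in control livers. The dKO livers lay close together and all above the controls, a 1.59-fold difference of means (log2 change 0.66 ± 0.13 SE, limma adjusted p = 0.013). Its call was lost with median-ratio scaling and without control replicate 1 or 3 (limma adjusted p 0.0115 to 0.0775 over the 15 alternatives). Cdk4, the kinase partner of the D cyclins, had 24.7, 23.0 and 38.5 RPKM in dKO livers, against 12.1, 13.3 and 13.6 RPKM in control livers. It was 2.21-fold higher in dKO (log2 change 1.05 ± 0.19 SE, limma adjusted p = 0.00926), with dKO replicate 3 the highest and the control livers nearly level.

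The other kinase and the other D cyclins did not pass the test. Cdk6, the second kinase of D cyclins, had 6.92, 6.82 and 7.67 RPKM in dKO livers, against 5.37, 4.73 and 5.88 RPKM in control livers. Its groups did not overlap, but the log2 change of 0.37 ± 0.13 (SE) had a limma adjusted p of 0.0728. Ccnd2 had 4.36, 5.02 and 8.74 RPKM in dKO livers, against 5.10, 5.04 and 5.13 RPKM in control livers, so that only dKO replicate 3 exceeded the controls. Its log2 change of 0.16 ± 0.21 (SE; limma adjusted p = 0.602) turned to -0.10 without that library and to -0.09 with median-ratio scaling. Ccnd3 had 8.36, 10.4 and 13.4 RPKM in dKO livers, against 10.1, 8.72 and 6.96 RPKM in control livers, with overlapping groups (limma adjusted p = 0.298). The 95% interval of the log2 change ran from -0.32 to 0.64 for Ccnd2 and from -0.15 to 0.70 for Ccnd3. Ccnd1 thus stood far above its paralogs in both groups, on a scale that accounts for transcript length.

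Of 3 inhibitors of CDKs, 2 were called higher and 0 lower, against 17.8% and 2.17% of all tested symbols. With median-ratio scaling 1 of the 3 was called higher, against 7.89% of all tested symbols. Cdkn2c encodes p18, which binds Cdk4 and Cdk6 and keeps D cyclins off them. It had 13.6, 10.4 and 12.3 RPKM in dKO livers, against 4.43, 7.19 and 6.73 RPKM in control livers. Every dKO liver exceeded every control, and the mean was 1.98-fold higher (log2 change 0.90 ± 0.18 SE, limma adjusted p = 0.0129). Cdkn1b encodes p27, an inhibitor of cyclin E and cyclin A kinases, and had 18.6, 17.3 and 18.0 RPKM in dKO livers, against 12.0, 13.4 and 12.0 RPKM in control livers. This 1.44-fold difference (log2 change 0.50 ± 0.11 SE, limma adjusted p = 0.0195) was small but well outside the spread within either group. The Cdkn1b call was lost with each of the 3 scalings and without dKO replicate 1 or control replicate 1 or 3 (limma adjusted p 0.0191 to 0.171 over the 15 alternatives). Cdkn1c, an imprinted gene for the inhibitor p57, had the largest SE of the 42 genes, with 7.48, 5.84 and 12.5 RPKM in dKO livers, against 3.18, 7.98 and 3.68 RPKM in control livers. Control replicate 2 lay above dKO replicates 1 and 2, and the log2 change of 0.72 ± 0.35 (SE) had a limma adjusted p of 0.171, which was 0.0341 without control replicate 2 (0.0341 to 0.419 over the 15 alternatives).

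At the G1/S transition 1 of 4 genes, 2 of them tested, was called higher, against 17.8% of all tested symbols. It had the largest log2 change of all 42. Its call held with median-ratio scaling, where 7.89% of all tested symbols were called higher. E2f1, which encodes the founding activator of the E2F family, had 3.51, 3.70 and 4.43 RPKM in dKO livers, against 0.891, 1.60 and 0.815 RPKM in control livers. Even the highest control lay at less than the lowest dKO liver, and the means differed 3.52-fold (log2 change 1.23 ± 0.18 SE, limma adjusted p = 0.00448). The cyclin E genes were near the limit of what was tested. Ccne1 had 0.608, 0.456 and 1.05 RPKM in dKO livers, against 0.737, 0.752 and 0.586 RPKM in control livers, and Ccne2 stayed within 0.638 to 0.810 RPKM in dKO and 0.636 to 0.699 RPKM in control livers. Both overlapped between the groups, and in a fit without a filter, where 8.48% of 16907 symbols were called higher and 0.858% lower, their limma adjusted p was 0.996 and 0.706. Cdk2, the kinase of cyclins E and A, had 5.79, 6.13 and 6.83 RPKM in dKO livers, against 6.10, 7.2 and 4.85 RPKM in control livers. Its log2 change was 0.05 ± 0.15 (SE; 95% interval -0.30 to 0.40, limma adjusted p = 0.822) and fell below 0 with all 3 scalings (-0.20 with median-ratio scaling).

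Origin licensing was the group without a call: 0 of 9 genes passed limma in either direction, although 8 were tested and 2 of them, Mcm5 and Cdt1, had an unadjusted p under 0.05. Over all tested symbols 17.8% were called higher, and among 8 genes a count of 0 lies near that share. All 8 log2 changes were above 0 (6 with median-ratio scaling). Their median was 0.38, against 0.23 over all tested symbols. Mcm2 to Mcm7 encode the 6 subunits of the replicative helicase, which is loaded onto origins in G1. Summed over those 6 genes, dKO livers had 34.2, 23.5 and 39.8 RPKM, against 21.2, 31.9 and 19.2 RPKM in control livers. Replicate 2 went against the rest of its group on both sides, being the lowest dKO liver and the highest control liver. Mcm5 had 4.98, 4.73 and 5.21 RPKM in dKO livers, against 2.54, 4.95 and 2.41 RPKM in control livers. With control replicate 2 the Mcm5 log2 change was 0.52 ± 0.21 (SE; limma adjusted p = 0.111), and without it the gene was called higher with a limma adjusted p of 0.0132 (0.0132 to 0.494 over the 15 alternatives). Mcm6 showed the widest spread of the 6, with 7.47, 4.51 and 11.1 RPKM in dKO livers, against 4.71, 8.72 and 5.38 RPKM in control livers (limma adjusted p = 0.617). Its log2 change was 0.22, -0.03 with median-ratio scaling and -0.05 without dKO replicate 3. Mcm2, Mcm3, Mcm4 and Mcm7 had log2 changes of 0.25 to 0.43 and limma adjusted p of 0.154 to 0.363. Upper ends of the 95% intervals reached 0.69 for Mcm4 and 1.01 for Mcm5, so an increase of up to those sizes could have gone uncalled in these libraries.

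The loaders of the helicase and their inhibitor were not called either. Cdt1, which brings the helicase to origins, had 3.03, 2.85 and 3.14 RPKM in dKO livers, against 2.32, 1.62 and 1.79 RPKM in control livers. Those groups did not overlap, and limma gave a log2 change of 0.47 ± 0.15 (SE; adjusted p = 0.0558), just outside the threshold. Gmnn, whose product geminin binds Cdt1 and blocks relicensing, had 8.33, 6.58 and 7.64 RPKM in dKO livers, against 4.66, 9.12 and 6.40 RPKM in control livers, with control replicate 2 the highest of all (limma adjusted p = 0.554). The Gmnn log2 change of 0.18 was -0.07 with median-ratio scaling. Cdc6, the ATPase that works with Cdt1, was the least abundant of the 42 genes at 0.303, 0.290 and 0.434 RPKM in dKO livers, against 0.191, 0.342 and 0.272 RPKM in control livers. It was under the filter, and without a filter its limma adjusted p was 0.506.

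**Figure D2:**
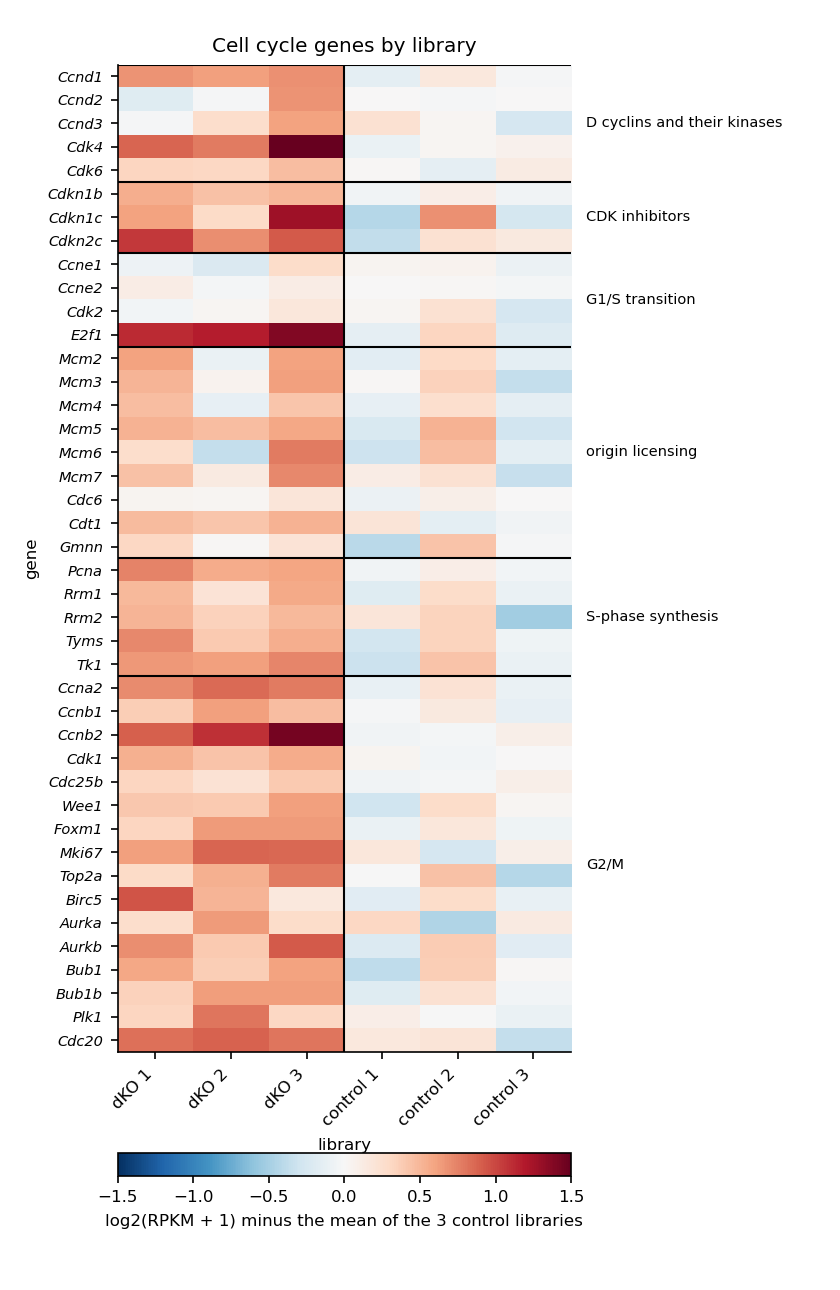
Each row is one of the 42 genes, grouped by role, and each column a library, with dKO replicates 1 to 3 left of control replicates 1 to 3. Colour gives log2(RPKM + 1) minus the mean of the 3 control libraries, clipped at 1.5 on either side; E2f1, Ccnb2 and Cdk4 are the darkest rows in dKO, and in the licensing rows other than Cdt1, control 2 is the highest control.

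Among 5 genes of S-phase synthesis, 2 were called higher, Pcna and Tk1, and 0 lower, against 17.8% and 2.17% of all tested symbols. With median-ratio scaling 0 of the 5 were called higher, against 7.89% of all tested symbols. Pcna, the sliding clamp of DNA polymerases, had 28.2, 24.6 and 25.2 RPKM in dKO livers, against 15.8, 17.6 and 15.9 RPKM in control livers. That gap of 1.58-fold was wide against the spread within each group (log2 change 0.63 ± 0.12 SE, limma adjusted p = 0.0106). Pcna lost its call with median-ratio and upper-quartile scaling (limma adjusted p 0.0104 to 0.0786 over the 15 alternatives). Tk1, a thymidine kinase of the salvage route, had 11.8, 11.5 and 12.5 RPKM in dKO livers, against 5.50, 9.94 and 6.56 RPKM in control livers (1.62-fold, log2 change 0.67 ± 0.19 SE, limma adjusted p = 0.0386). The Tk1 call was lost with each of the 3 scalings, without a filter and without any single library other than control replicate 2, whose removal gave a limma adjusted p of 0.00705 (0.00705 to 0.133 over the 15 alternatives).

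The remaining S-phase genes did not pass the test, and the groups overlapped for Rrm1. Tyms, the thymidylate synthase of the de novo route, had 2.44, 1.74 and 2.05 RPKM in dKO livers, against 0.728, 1.64 and 0.992 RPKM in control livers (log2 change 0.55 ± 0.20 SE, limma adjusted p = 0.0763). Rrm1 and Rrm2 encode the subunits of ribonucleotide reductase, which makes deoxynucleotides. Rrm1 had 9.11, 7.32 and 9.74 RPKM in dKO livers, against 5.38, 7.71 and 5.76 RPKM in control livers (limma adjusted p = 0.095). Rrm2 had 5.58, 4.86 and 5.49 RPKM in dKO livers, against 4.23, 4.83 and 2.23 RPKM in control livers (limma adjusted p = 0.164). In all 5 genes control replicate 2 was the highest control and dKO replicate 2 the lowest dKO library. Without control replicate 2, Rrm1 and Tyms were called higher as well, with limma adjusted p of 0.0401 and 0.034.

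Genes of G2 and mitosis, the largest group, gave the most calls, 6 of 16, all higher in dKO liver. Over all tested symbols 17.8% were called higher. With median-ratio scaling 2 of the 16 were called higher, against 7.89% of all tested symbols. The 6 genes encode the mitotic cyclins and kinase (Ccna2, Ccnb2, Cdk1) and the transcription factor that drives them (Foxm1). They also include the genes of the proliferation antigen Ki-67 (Mki67) and an activator of the anaphase-promoting complex (Cdc20). Ccnb2, cyclin B2, had 9.55, 11.1 and 14.4 RPKM in dKO livers, against 4.45, 4.54 and 5.05 RPKM in control livers. It had the second largest log2 change of the 42 genes, 1.14 ± 0.16 (SE), with a 2.5-fold difference of means and a limma adjusted p of 0.00349. Ccna2, cyclin A2, which acts from S phase to mitosis, had 9.76, 10.8 and 10.3 RPKM in dKO livers, against 5.07, 6.63 and 5.10 RPKM in control livers. The dKO livers were tightly grouped, 1.84-fold above control (log2 change 0.78 ± 0.13 SE, limma adjusted p = 0.00818).

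Mki67, the usual histological marker of cycling cells, had 10.4, 12.6 and 12.5 RPKM in dKO livers, against 7.34, 5.24 and 6.86 RPKM in control livers. Groups were 1.82-fold apart (log2 change 0.78 ± 0.15 SE, limma adjusted p = 0.0109), and the call was lost with each of the 3 scalings (limma adjusted p 0.0105 to 0.0683 over the 15 alternatives). Cdc20 had 9.15, 9.54 and 8.96 RPKM in dKO livers, against 5.37, 5.57 and 3.48 RPKM in control livers. Its 1.92-fold difference (log2 change 0.84 ± 0.16 SE, limma adjusted p = 0.0122) lost the call with median-ratio scaling and quantile normalization (0.0117 to 0.0604 over the 15 alternatives). Cdk1, the kinase that starts mitosis, had 4.03, 3.66 and 4.10 RPKM in dKO livers, against 2.56, 2.36 and 2.47 RPKM in control livers. Both groups were tight and did not overlap (1.59-fold, log2 change 0.51 ± 0.13 SE, limma adjusted p = 0.0283), yet the call was lost with each scaling and without any single library other than dKO replicate 2 (0.0263 to 0.379 over the 15 alternatives). Foxm1 had 2.40, 3.23 and 3.23 RPKM in dKO livers, against 1.53, 2.05 and 1.60 RPKM in control livers. Its log2 change of 0.53 ± 0.16 (SE) only just passed, with a limma adjusted p of 0.0472 that ran from 0.0440 to 0.438 over the 15 alternatives. The Foxm1 call was lost with each scaling, without a filter, with a filter of 0.2 RPKM and without any single library other than control replicate 2.

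**Figure D3:**
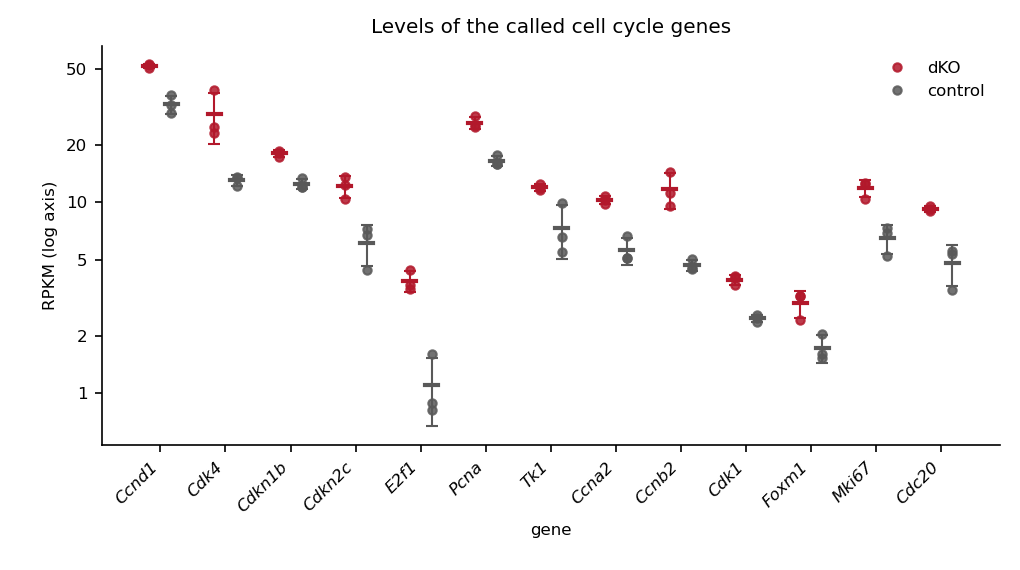
RPKM of the 13 called genes on a log axis, with dKO left of control for each gene; points are libraries, thick bars means and thin bars SD (n = 3 each). No dKO point overlaps a control point of the same gene, and levels run from below 1 RPKM for E2f1 in 2 control livers to above 50 RPKM for Ccnd1 in dKO livers.

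Of the 10 uncalled G2/M genes, 7 had every dKO liver above every control. So had 4241 of all 11062 tested symbols. The 7 genes were Ccnb1, Cdc25b, Wee1, Aurkb, Bub1, Bub1b and Plk1. Ccnb1, cyclin B1, had 2.70, 3.40 and 2.97 RPKM in dKO livers, against 1.84, 2.18 and 1.63 RPKM in control livers (log2 change 0.48 ± 0.15 SE, limma adjusted p = 0.0523). Aurkb, the kinase of the chromosomal passenger complex, had 4.04, 3.07 and 4.86 RPKM in dKO livers, against 1.68, 3.03 and 1.76 RPKM in control livers (limma adjusted p = 0.0522). Bub1b, a spindle checkpoint protein, had 2.54, 3.31 and 3.31 RPKM in dKO livers, against 1.45, 2.27 and 1.7 RPKM in control livers (limma adjusted p = 0.0533). These 3 genes and Cdt1 missed the threshold narrowly. Plk1, a kinase of spindle assembly, had 3.96, 5.90 and 3.89 RPKM in dKO livers, against 3.25, 2.94 and 2.69 RPKM in control livers (limma adjusted p = 0.0735). Wee1 holds Cdk1 inactive and Cdc25b relieves that block. Wee1 had 2.09, 2.06 and 2.58 RPKM in dKO livers, against 0.894, 1.84 and 1.38 RPKM in control livers (limma adjusted p = 0.102). Cdc25b had 1.61, 1.42 and 1.74 RPKM in dKO livers, against 1.00, 1.04 and 1.21 RPKM in control livers (limma adjusted p = 0.161). Both regulators, which act against each other, thus had their dKO livers above their controls. Bub1, another checkpoint kinase, had 1.55, 1.2 and 1.59 RPKM in dKO livers, against 0.306, 1.19 and 0.716 RPKM in control livers (limma adjusted p = 0.112).

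The groups overlapped for Top2a, Birc5 and Aurka. Top2a, the topoisomerase that untangles chromosomes, had 6.78, 8.19 and 9.96 RPKM in dKO livers, against 5.33, 7.63 and 3.74 RPKM in control livers (limma adjusted p = 0.121). Birc5, which encodes survivin, had 11.9, 8.49 and 6.45 RPKM in dKO livers, against 4.92, 7.12 and 5.21 RPKM in control livers (limma adjusted p = 0.104). Aurka, a centrosomal kinase, had 4.66, 6.35 and 4.69 RPKM in dKO livers, against 4.87, 2.44 and 4.19 RPKM in control livers (limma adjusted p = 0.211). Birc5 was the one G2/M gene at its lowest in dKO replicate 3 while at its highest in dKO replicate 1, and control replicate 2, high for most genes, was the lowest library for Aurka. Without control replicate 2, Aurkb, Bub1, Bub1b and Top2a joined the called genes and Cdk1 left them, giving 9 G2/M genes called higher. Over all tested symbols that setting gave 1983 called higher, against 1965 with all libraries.

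The ranks of libraries within a group were also read by phase. For all 9 licensing and all 5 S-phase genes, dKO replicate 2 was the lowest dKO library, while for the 16 G2/M genes it was the highest one in 8 and the lowest in 5. Summed RPKM of the G2/M genes was 87.1, 94.3 and 95.6 in dKO livers, against 51.9, 58.1 and 48.8 in control livers, which kept the groups well apart. Summed RPKM of the licensing genes was 45.9, 33.2 and 51.0 in dKO livers, against 28.4, 43.0 and 27.6 in control livers, so that control replicate 2 lay above dKO replicate 2. For S-phase synthesis the sums were 57.1, 50 and 55.0 RPKM in dKO livers, against 31.7, 41.7 and 31.5 RPKM in control livers. Control replicate 2 held the highest control value of 31 of the 42 genes, including 8 of 9 licensing, 5 of 5 S-phase and 10 of 16 G2/M genes. The median log2 change was 0.53 over the 16 G2/M genes and 0.38 over the 8 tested licensing genes, or 0.31 and 0.15 with median-ratio scaling and 0.17 and 0.07 with quantile normalization, and the difference between the phases was not tested. Without dKO replicate 2 the licensing median was 0.53, without dKO replicate 3 it was 0.26, without dKO replicate 1 it was 0.29 and without control replicate 3 it was 0.24.

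**Figure D4:**
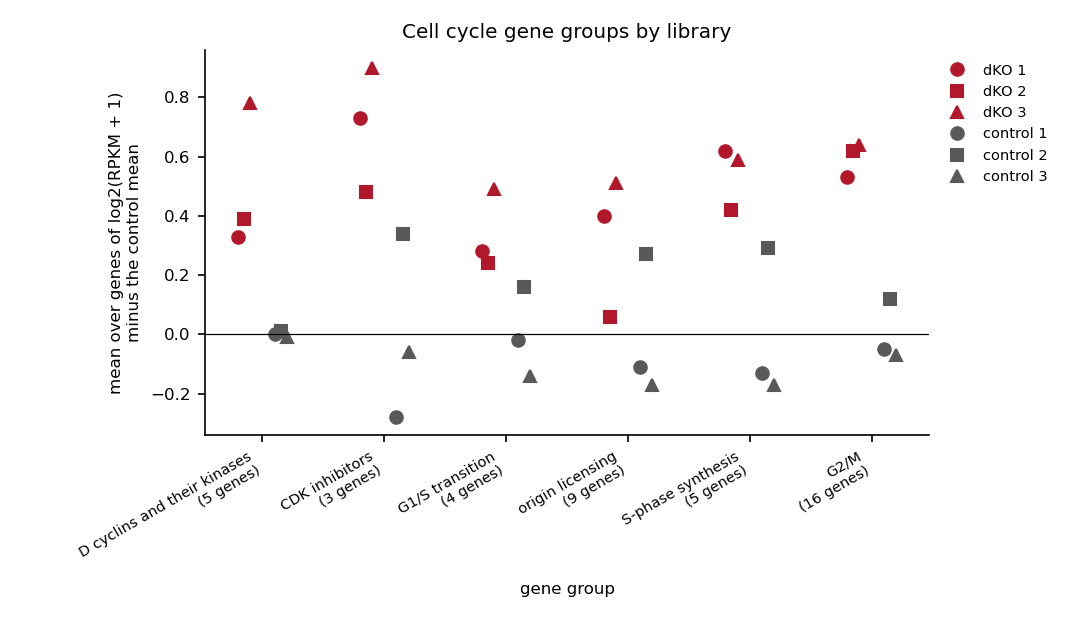
Mean over the genes of each group of log2(RPKM + 1) minus the mean of the 3 control libraries, for each library; symbols give the replicate number, with dKO in red left of control in grey. The dKO and control libraries separate in every group except origin licensing. In G2/M they lie at 0.53 to 0.64 in dKO and -0.07 to 0.12 in control. In the G1/S transition the lowest dKO library is at 0.24 and the highest control at 0.16. They cross in origin licensing, where dKO 2 is at 0.06 and control 2 at 0.27.

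Markers of other cell types also differed between the groups and libraries. Of 6 cholangiocyte markers 4 were tested and all 4 were called higher (Krt19 not with median-ratio scaling), and none was at 0; they summed to 324.6 to 957.5 RPKM in dKO and 21.8 to 70.5 RPKM in control livers, most of it Spp1. Kupffer cell and macrophage markers gave 0 calls of 6 (Marco was called lower with median-ratio scaling), none was at 0, and they summed to 194.2, 152.1 and 223.7 RPKM in dKO livers, against 113.9, 203.0 and 91.5 RPKM in control livers. Replicate 2 was thus the lowest dKO and the highest control library for these markers as for the licensing genes. The same held for the lymphocyte, stellate cell and sinusoidal endothelial sums, and not for the cholangiocyte, neutrophil or hepatocyte sums. The part of any of these markers in the licensing values was not tested. Lymphocyte markers summed to 5.54 to 8.6 RPKM in dKO and 3.68 to 6.93 RPKM in control livers, with 1 of 7 tested and 0 called. Neutrophil markers (Ly6g not analysed here) summed to 35.1 to 73.8 RPKM in dKO and 51.4 to 105.2 RPKM in control livers, with 2 of 4 tested and 0 called. The 2 untested ones, Mpo and Elane, had every dKO liver above every control, and Mpo was called higher in the fit without a filter (limma adjusted p = 0.0291), while S100a9 had every dKO liver below every control. Most lymphocyte markers lay under the filter and could not be called, and the neutrophil markers differed in direction. Stellate cell markers summed to 45.1 to 93.9 RPKM in dKO and 35.1 to 38.9 RPKM in control livers, with 1 of 6, Rgs5, called higher. Sinusoidal endothelial markers summed to 68.2 to 81.7 RPKM in dKO and 63.1 to 69.7 RPKM in control livers, with 0 of 5 called. Hepatocyte markers gave 2 of 6 called lower, Tat and Ttr (Ttr not with median-ratio scaling), and summed to 38878 to 45239 RPKM in dKO and 44861 to 58095 RPKM in control livers. How far any of these cell types bore on the cell cycle values was not tested.

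Beyond the 42 genes, 110 other genes of the cycle were read the same way: 22 were called higher in dKO livers and 0 lower, of 97 tested. That share of 22.7% stood beside 17.8% of all tested symbols called higher and 2.17% called lower. With median-ratio scaling 6 were called higher (6.19%) and 0 lower, against 7.89% of all tested symbols higher and 5.55% lower, so that the share higher lay near that of all genes. Without dKO replicate 1, 2 or 3 or control replicate 1 or 3 the count was 11, 13, 10, 6 and 7, and without control replicate 2 it was 24. Over all tested symbols the same settings gave 1171, 1597, 1049, 755, 947 and 1983 called higher, against 1965 with all libraries. The median log2 change over the 97 was 0.35, and 0.13 with median-ratio scaling, 0.16 with upper-quartile scaling and 0.02 with quantile normalization. By group, 13 of 33 tested genes of the spindle, kinetochore and cytokinesis were called higher, and 3 of 34 of origin firing and the replisome. The counts were 5 of 12 tested further CDK regulators, 1 of 15 of the pocket protein, E2F and DREAM genes, and 0 of 3 checkpoint kinases. With median-ratio scaling they were 3, 1, 2, 0 and 0 in that order, against 7.89% of all tested symbols. Differences between these groups were not tested. In promoters of the spindle group CHR letters stood in 21 of 29, and in those of the firing and replisome group in 7 of 32. E2F letters stood in 2 of 29 and in 8 of 32 of the same promoters. Over all 7922 tested symbols whose promoter was listed, 17.9% were called higher, against 16.5% of the 1110 that held CHR letters, 21.0% of the 471 that held both CHR and CCAAT letters, 19.8% of the 328 with E2F letters and 21.7% of the 950 with TEAD letters. These shares lie near that of all promoters, and the differences were not tested.

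Cdkn1a, which encodes p21, the inhibitor induced by p53, had the largest log2 change of these genes. It had 31.4, 33.6 and 40.5 RPKM in dKO livers, against 9.81, 11.1 and 8.4 RPKM in control livers, a 3.60-fold difference without overlap (log2 change 1.75 ± 0.15 SE, limma adjusted p = 0.000548). Ccng1 and Ccng2, atypical cyclins linked to arrest, rose as well, with log2 changes of 0.49 ± 0.13 and 0.82 ± 0.19 (SE; limma adjusted p = 0.0282 and 0.0207). Rb1, the retinoblastoma gene, had 3.39, 3.51 and 4.26 RPKM in dKO livers, against 2.22, 2.18 and 2.49 RPKM in control livers (limma adjusted p = 0.0353). Ccnf, cyclin F, rose with a log2 change of 0.80 ± 0.16 (SE; limma adjusted p = 0.0118).

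Among mitotic genes the smallest p belonged to Cdca3, which promotes mitotic entry, with 9.58, 11.3 and 12.8 RPKM in dKO livers, against 5.23, 4.49 and 4.81 RPKM in control livers (2.32-fold, limma adjusted p = 0.00295). Ect2 and Racgap1, which set the plane of cytokinesis, followed with log2 changes of 0.91 ± 0.14 and 0.74 ± 0.14 (SE; limma adjusted p = 0.0057 and 0.0106), and Cenpf, a kinetochore protein, with 0.70 ± 0.15 (SE; limma adjusted p = 0.0176). Of the replication genes, Gins2, a subunit of the active helicase, had 5.35, 4.38 and 7.09 RPKM in dKO livers, against 2.72, 2.91 and 1.44 RPKM in control livers (limma adjusted p = 0.0197). Prim1, a primase subunit, and Pold1, the catalytic subunit of polymerase delta, rose with log2 changes of 0.77 ± 0.18 and 0.64 ± 0.19 (SE; limma adjusted p = 0.0206 and 0.0432). Pold1 passed the filter through its dKO libraries, its control mean being 0.873 RPKM. After median-ratio scaling Cdkn1a, Ccnf, Gins2, Cdca3, Ect2 and Racgap1 were still called, and Ccng1, Ccng2, Rb1, Prim1, Pold1 and Cenpf were not. Cdkn1a, Cdca3 and Ect2 were called in each of the 15 alternatives. Leaving out a single library ended the calls of Prim1 (dKO replicate 1 or control replicate 1), Cenpf (control replicate 1 or 3), Gins2 (dKO replicate 3 or control replicate 3), Pold1 (every library except control replicate 2), Ccng1 (likewise), Ccng2 (dKO replicate 3, control replicate 1 or 3) and Rb1 (every library).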

How the data were processed

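Liver RNA of 3 Mst1/2 liver-dKO and 3 control libraries was compared. The deposited values, computed by the authors and given once per gene symbol, were taken as RPKM. The unit was inferred from the values, since low values of single-transcript genes lay near whole multiples of 1 read over the transcript length (72.4% to 78.8% within 0.15 of a read). The depth was fitted to these same values. The spacing therefore cannot tell RPKM from another unit that divides reads by transcript length. Per the submitters' processing notes the genome build was mm9, and the aligner, counter and annotation are not given in the sources used here, so reads shared by near-identical copies (for example of Ccnb1) may have been split or dropped, and those values are uncertain.

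Values were taken as log2(RPKM + 1), symbols with a mean under 1 RPKM were left out, and groups were compared with limma 3.58.1 (trend, robust) in R 4.3.3, with Benjamini-Hochberg adjustment over all tested symbols and a threshold of 0.05. Confidence intervals are 95%. The procedure was tested on simulated data with about as many genes raised as lowered and no shift of the whole distribution. That run therefore did not test the calls under the upward shift found here. Alternatives were median-ratio, upper-quartile and quantile scaling, a pseudocount of 0.1, no filter, a mean filter of 0.2 RPKM, a filter of 1 RPKM in at least 3 libraries, moderation without the robust option, replicate number as a block, a threshold of 0.01 and leaving out each library. All 42 genes are named, and of each further list up to 4 called genes with the smallest p. The members, lists and tests were chosen with earlier results of these data known. Promoters were read with Python 3.11.15 from a RefSeq table, which held none for Ccna2, Aurkb, Foxm1, Wee1, Ccnd1, Ccnd2, Cdkn1c, Ccne2, Mcm4 and Gmnn. A further list of cell type markers is not reported here.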

Additional observations from a re-analysis of the deposited data

How the results depend on the processing

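In every alternative 0 of the 42 genes were called lower. The count called higher, 13, was 5 with median-ratio scaling, 7 with upper-quartile scaling, 7 with quantile normalization, 4 at a threshold of 0.01 and 8 to 20 when 1 library was left out; for all tested symbols the same settings gave 873, 953, 727, 490 and 755 to 1983 higher and 614, 540, 554, 49 and 90 to 241 lower, with 145 lower without a filter. D cyclins and kinases gave 1 call with median-ratio scaling, 1 at 0.01 and 1 to 2 without a library. CDK inhibitors gave 1 with each of the 3 scalings, 0 at 0.01 and 1 to 3 without a library. S-phase genes gave 0, 0 and 1 with median-ratio, upper-quartile and quantile scaling, 1 without a filter, 0 at 0.01 and 1 to 4 without a library. G2/M genes gave 2, 3 and 2 with the scalings in that order and 2 at 0.01. Licensing genes gave 0 to 1 without a library. Other cell cycle genes gave 6, 7 and 3 higher with the scalings, 3 at 0.01 and 6 to 24 without a library, and 1 lower with quantile normalization. The scalings centre the all-gene median near 0; the cause of the other changes was not tested.

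Log2 changes that turned below 0, all of uncalled genes, were in the order median-ratio, upper-quartile and quantile scaling -0.09, -0.05 and -0.12 for Ccnd2, -0.20, -0.16 and -0.22 for Cdk2, -0.07, -0.04 and -0.09 for Gmnn and -0.11, -0.08 and -0.16 for Stk4. Quantile normalization gave -0.06 for Mcm4, -0.03 for Mcm6 and -0.05 for Cdc25b, and median-ratio scaling -0.03 for Mcm6. Leaving out 1 library gave -0.10 (dKO replicate 3) to 0.33 for Ccnd2, -0.08 (control replicate 3; -0.01 without dKO replicate 3) to 0.17 for Cdk2, -0.05 (dKO replicate 3) to 0.51 for Mcm6 and -0.03 (control replicate 1) to 0.39 for Gmnn.

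Replicate numbers did not pair the samples: deviations of same-numbered libraries correlated at -0.081, -0.101 and -0.01 over genes, and no library correlated best with its own number. With the replicate number as a block 10 of the 42 genes were called higher, the calls of Cdkn1b, Cdk1 and Foxm1 being lost (limma adjusted p = 0.0567, 0.0703 and 0.0749), with 1 CDK inhibitor and 12 other cell cycle genes. Genes near 1 RPKM rest on few reads at these depths.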
